A study of Mus musculus with 10 samples.

Results

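The 10 genes described here encode the receptor for interleukin 2 (Il2ra, Il2rb and Il2rg), the transcription factors it activates (Stat5a and Stat5b), the feedback inhibitors that STAT5 induces (Cish, Socs1, Socs2 and Socs3) and a kinase induced along with them (Pim1). They were taken by gene symbol from the count table, where all 10 were found among 21556 genes, and all 10 passed the filter on low counts that left 13920 genes. Their counts ran from 305 to 100881 per library, so counting error is small beside the spread between libraries.

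The study asked how MHC class II on the lymphatic endothelial cells of a tumor bears on regulatory T cells (Tregs), which are CD4+ T cells that restrain immune responses. Mice aged 10 weeks received a lymphangiogenic mouse melanoma line, and Tregs were sorted by their red fluorescence (RFP) from the tumor and from lymph node (LN). The MHCII-deleted mice have the genotype MHCIIdeltaProx-1 and are positive for Cre driven by Prox1, a lymphatic endothelial gene, with 2 tumor and 2 LN libraries. The control mice (MHCIIfl/fl) are floxed and negative for Cre, with 3 tumor and 3 LN libraries. The reporter is shared by all 4 groups. The deletion lies in cells that were not sorted, so no gene in these libraries checks it. The labels do not say whether each library came from its own mouse or from pooled mice, nor which LN was taken, so p-values measure the spread between these libraries.

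Interleukin 2 binds a receptor made of an alpha chain, which raises affinity, and of beta and common gamma chains, which carry the signal to the kinases JAK1 and JAK3. These phosphorylate STAT5, which enters the nucleus and induces Il2ra, Cish and other SOCS genes, and the SOCS proteins then damp the receptor. Tregs depend on this circuit because they take up interleukin 2 made by other T cells, carry high levels of the alpha chain and need STAT5 to keep Foxp3 on.

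The classical STAT5 motif, TTCNNNGAA, reads the same on both strands, and Cish is shown because it is the textbook STAT5 target and had the largest fall in tumor libraries of MHCII-deleted mice among the members on the scale of all counts. RefSeq promoter entries (GRCm38.p6, from 250 bases before to 50 after the start of the entry's own RefSeq gene model) matched 8 of the 10 members with 11 entries, and the motif was found in 2 of them, those of Cish and Socs3. It occurs at least once in 8.298% and at least 2 times in 0.457% of all 32851 promoter entries of that length, and motif matches are in capitals.
Cish, chr9:107296409-107296708, plus strand: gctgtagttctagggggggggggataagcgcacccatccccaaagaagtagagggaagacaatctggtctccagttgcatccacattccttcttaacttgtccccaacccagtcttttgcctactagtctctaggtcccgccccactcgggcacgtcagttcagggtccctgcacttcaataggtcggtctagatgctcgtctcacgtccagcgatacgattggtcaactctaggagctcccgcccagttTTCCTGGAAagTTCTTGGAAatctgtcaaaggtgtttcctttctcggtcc
Socs3, chr11:117969317-117969616, minus strand: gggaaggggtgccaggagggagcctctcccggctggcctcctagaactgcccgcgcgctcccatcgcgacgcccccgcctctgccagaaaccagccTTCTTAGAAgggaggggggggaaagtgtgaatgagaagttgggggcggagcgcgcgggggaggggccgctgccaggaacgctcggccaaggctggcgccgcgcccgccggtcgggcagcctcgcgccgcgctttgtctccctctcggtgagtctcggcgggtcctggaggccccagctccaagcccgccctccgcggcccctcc
The Cish matches lie at 107296659-107296667 and 107296670-107296678, and the Socs3 match begins 154 bases before the start of its entry. For both genes that start lies inside the outermost gene bounds of the GENCODE annotation, which are the positions given with each member. The matches are descriptions of these letters, not measured binding sites.

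Libraries held 28539329 to 35736175 counts. Levels are given as CPM, the count scaled to a fixed library total, after TMM normalisation, and a gene was called when its adjusted p fell under 0.05 in edgeR's quasi-likelihood test over all genes. The Treg markers Foxp3 and Cd4 were present in every library, with Foxp3 at 342 to 349 CPM in tumor libraries of MHCII-deleted mice and 580.3 to 817 CPM in the other groups. The 10 melanoma genes (Pmel, Dct, Tyrp1 and others) summed to 18753 to 22945 CPM in tumor libraries of MHCII-deleted mice, 4731 to 9259 CPM in tumor libraries of controls, 21.8 to 23.6 CPM in LN of MHCII-deleted mice and 13.4 to 21.0 CPM in LN of controls. None of these 10 genes was at 0 in any tumor library. The 20 pan-T cell genes (Cd3e, Lck and others) took 0.583 to 0.696% of counts in tumor libraries of MHCII-deleted mice, 1.23 to 1.30% in tumor libraries of controls, 1.44 to 1.47% in LN of MHCII-deleted mice and 1.46 to 1.53% in LN of controls. In bulk RNA of this kind, fewer Tregs in a library and less of an RNA per Treg cannot be told apart. Many differences are therefore also given on a second scale, per 10000 counts of the pan-T cell genes. That scale moved the median log2 difference of all genes from 0.10 to 1.23 for MHCII-deleted over control tumors, from 0.07 to 1.28 for tumor over LN in MHCII-deleted mice and from 0.08 to 0.16 for tumor over LN in control mice.

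**Figure D1:**
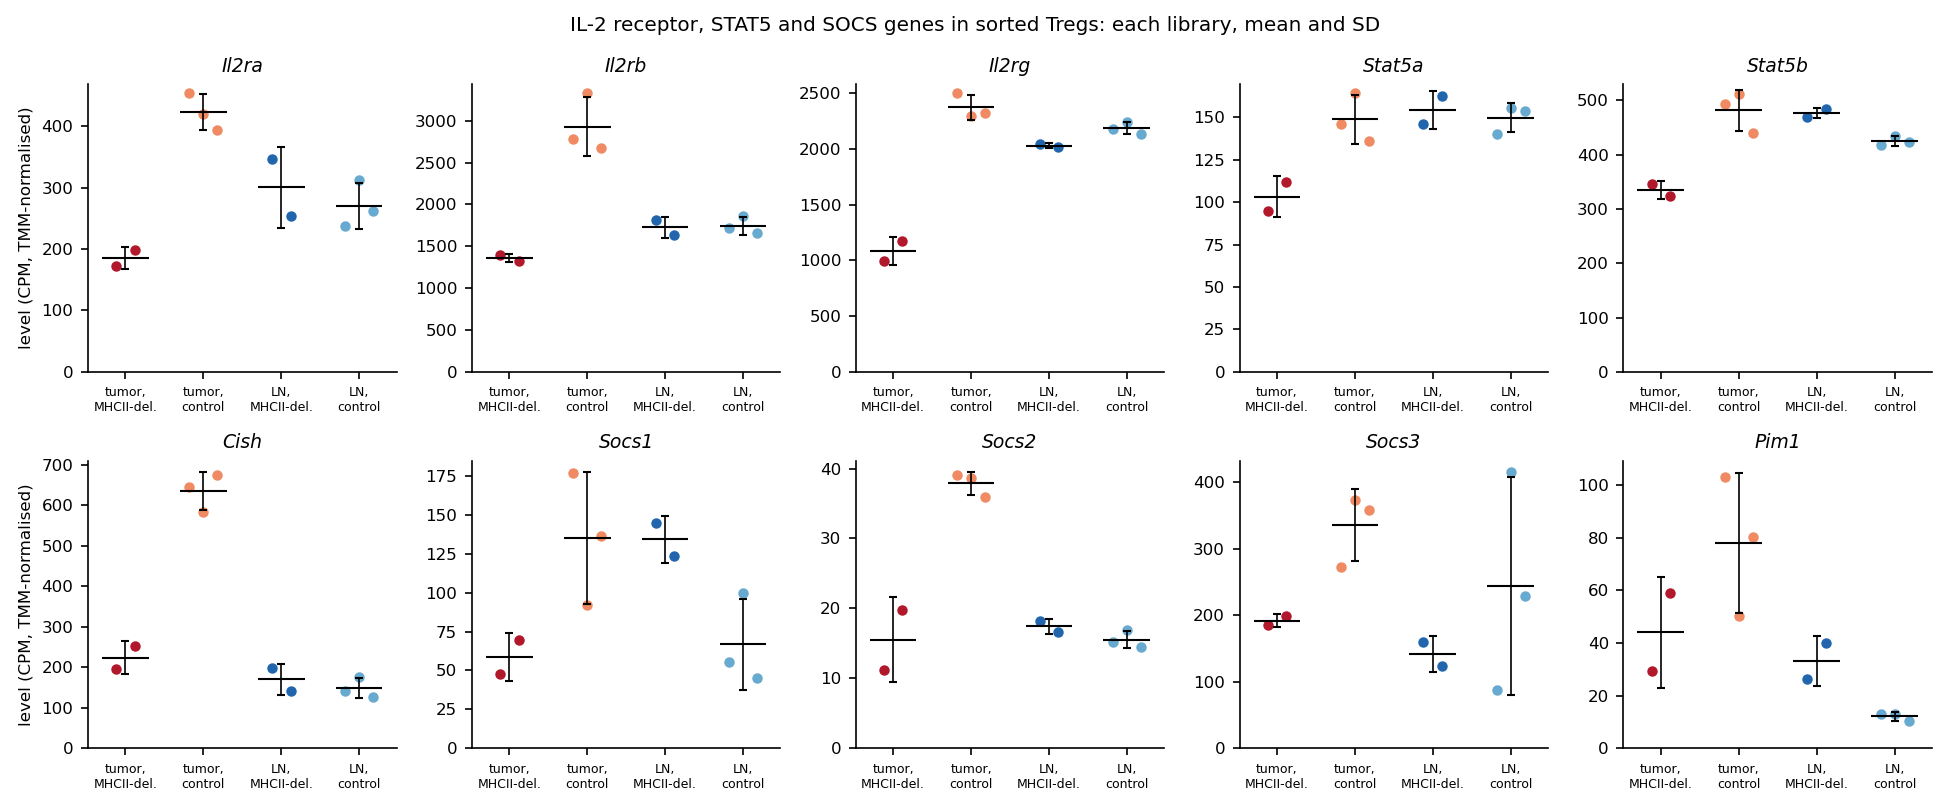
Level of each gene (CPM, y axis from 0) in each library, by group on the x axis, with the mean as a line and the SD as a bar; n = 2 libraries for each MHCII-deleted group and 3 for each control group. The 3 control tumor libraries lie above every other library for Cish (583 to 675 CPM), Socs2, Il2ra, Il2rb and Il2rg.

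In control mice, tumor Tregs had more RNA of the receptor alpha and beta chains and of most feedback genes than LN Tregs, and the direction was the same on both scales. In tumor, 6 of 10 members (Il2ra, Il2rb, Cish, Socs1, Socs2 and Pim1) rose, against 22.8% of all genes tested, and 0 fell, against 16.1% of all genes. The median log2 difference was 0.70 over the members and 0.08 over all genes. On the pan-T cell scale 7 members rose, the added one being Il2rg, against 23.5% of all genes, and 0 fell, against 10.6%. On the scale of all counts 58.6% of called genes were higher, and on the pan-T cell scale 68.9%.

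In MHCII-deleted mice, the direction of tumor over LN depended on the scale. By all counts, 6 members (Il2ra, Il2rb, Il2rg, Stat5a, Stat5b and Socs1) fell, against 20.1% of all genes, and 0 rose, against 24.3%. On the pan-T cell scale, 9 members rose, against 64.4% of all genes, 0 fell, against 2.25%, and only Socs1 was not called. The median over the members was -0.43 by all counts and 0.79 per pan-T cell count, each below the median of all genes on the same scale (0.07 and 1.28). Of called genes, 54.8% were higher by all counts and 96.6% per pan-T cell count.

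**Figure D2:**
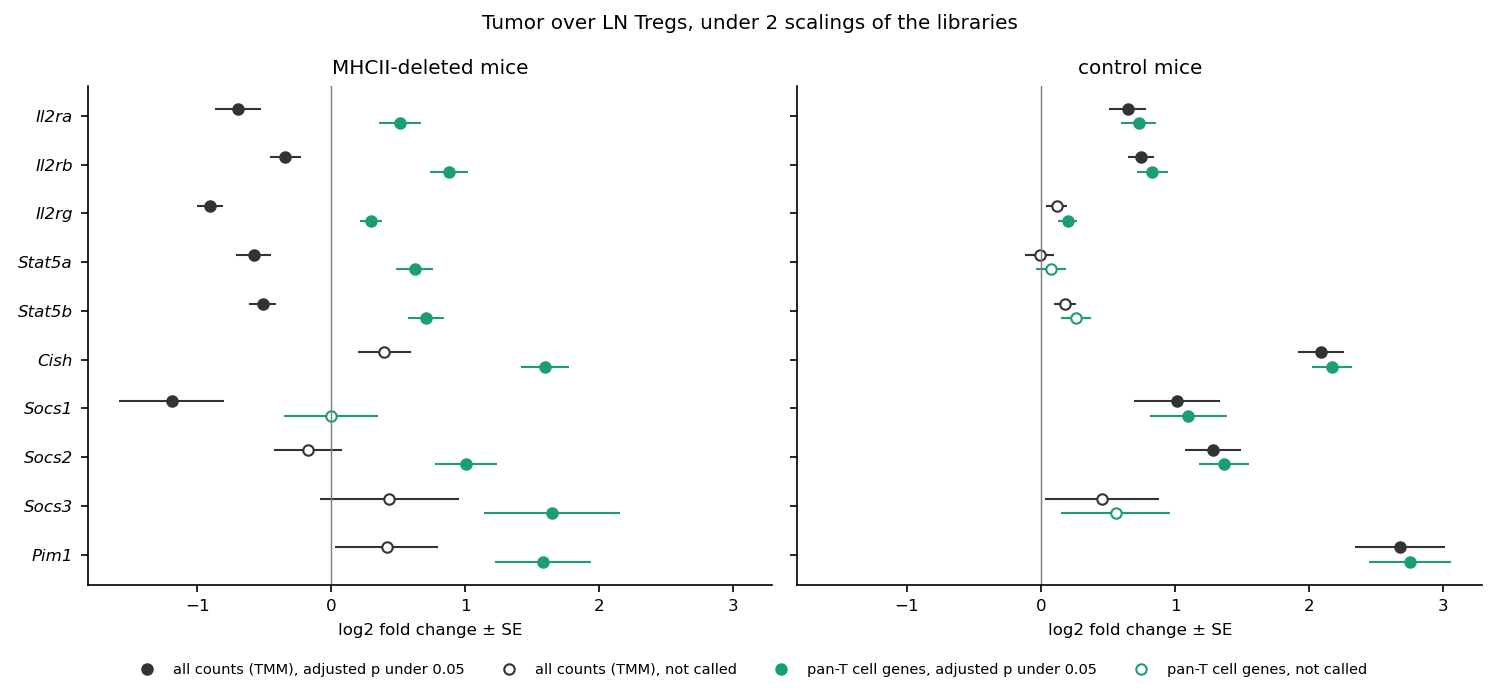
Log2 fold change of tumor over LN (x axis, with SE) for each member, left for MHCII-deleted and right for control mice; black uses all counts, green the pan-T cell genes, and filled points were called. In control mice the called members lie right of 0 on both scales, while in MHCII-deleted mice Il2ra, Il2rb, Il2rg, Stat5a and Stat5b lie left of 0 by all counts and right of 0 per pan-T cell count.

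Between tumors, 8 members fell in MHCII-deleted mice relative to controls by all counts, against 13.7% of all genes, and 0 rose, against 15.0%. The members' median was -1.12 and that of all genes 0.10. Per pan-T cell count 0 members fell, against 0.330% of all genes, and 2, Stat5a and Stat5b, rose, against 67.1%. The members' median was then 0.00, with the median of all genes at 1.23. Of called genes, 52.3% were higher by all counts and 99.5% per pan-T cell count. The melanoma sum and the pan-T cell share given above move with this comparison, and their part in the result was not tested.

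Between LNs, 0 members were called in edgeR's test, against 1.07% of all genes higher and 0.0359% lower. At an unadjusted p under 0.05 there were 2, Socs1 and Pim1, against 1298 of 13920 genes. DESeq2 called 1 member higher in LN of MHCII-deleted mice, against 615 of 12372 genes. By limma-voom 2 members were higher there, against 754 of 13920 genes. The pan-T cell scale gave 1 higher, Pim1, against 2.79% of all genes, and 0 lower, against 0.0575%. The test of the difference, the deletion effect in tumor minus that in LN, called 8 members lower by all counts, against 6.57% of all genes, and 0 higher, against 4.14%. With the pan-T cell scale it called 0 lower, against 0.151%, and only Stat5a higher, against 45.9%. The comparisons share libraries, so their values are set side by side and are not independent of each other.

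**Figure D3:**
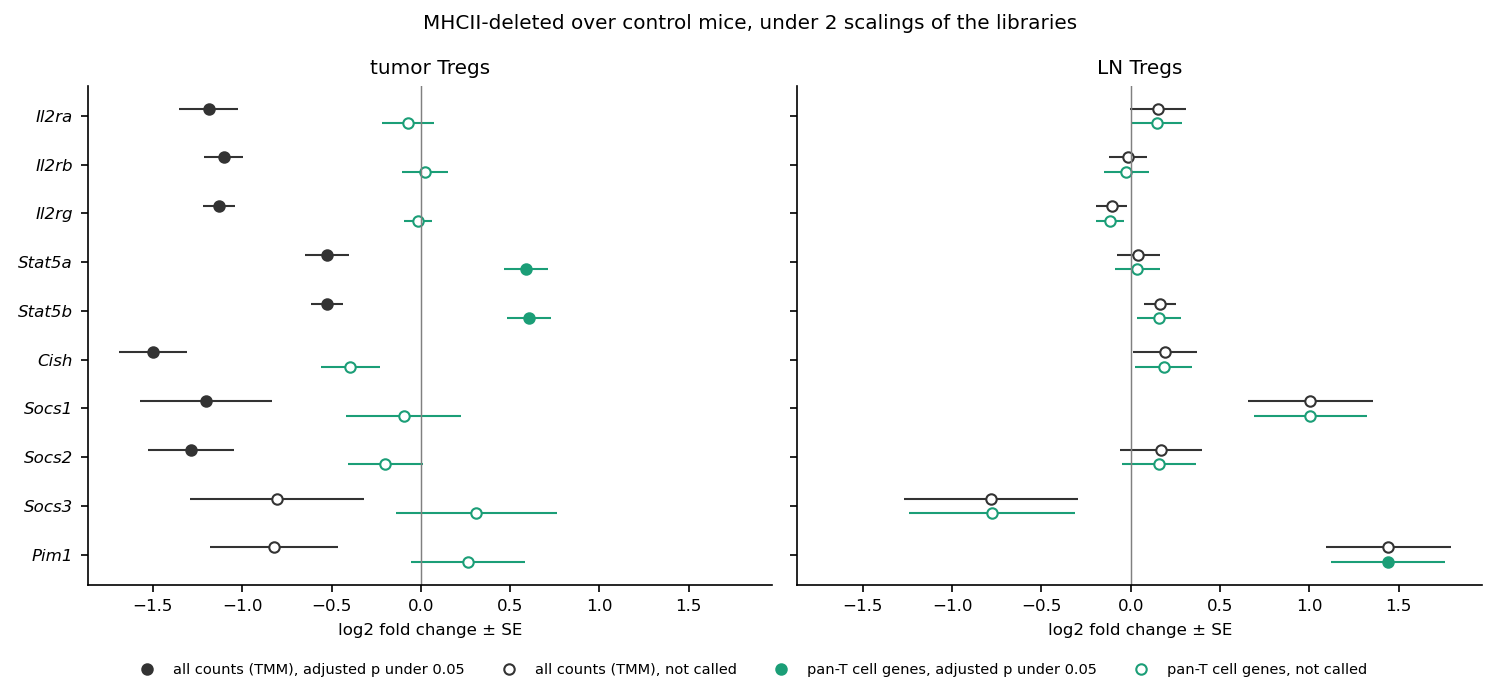
Log2 fold change of MHCII-deleted over control mice (x axis, with SE) for each member, left in tumor Tregs and right in LN Tregs; black uses all counts, green the pan-T cell genes, and filled points were called. In tumor, 8 members were called lower by all counts, and per pan-T cell count Stat5a (0.59) and Stat5b (0.60) were called higher and the others were not called.

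Il2ra encodes the alpha chain, CD25, which marks Tregs (chromosome 2, 11642807-11693193, plus strand; GRCm38, as are the gene positions that follow). It had 173 and 199 CPM in tumor Tregs of MHCII-deleted mice, against 454, 420.5 and 394 CPM in tumor Tregs of controls. In LN it had 347 and 253 CPM in MHCII-deleted mice, against 237, 312 and 262 CPM in controls. The 2 tumor libraries of MHCII-deleted mice were the lowest of all 10 and the 3 control tumor libraries the highest, while the LN groups overlapped. By all counts, Il2ra was lower in MHCII-deleted than in control tumors (log2 -1.19 ± 0.16 SE, adjusted p = 0.000864), but per 10000 pan-T cell counts these tumors had 304 and 291, against 326, 314 and 298 in controls, a log2 difference of -0.07 ± 0.14 that was not called. Tumor over LN was 0.65 ± 0.14 in control mice (adjusted p = 0.00536). In MHCII-deleted mice it was -0.69 ± 0.17 by all counts (adjusted p = 0.00875) and 0.51 ± 0.16 per pan-T cell count, called in opposite directions. Without LN replicate 1 or tumor replicate 1 of the MHCII-deleted mice, the first of these became -0.45 and -0.60 and was not called. The LN difference was 0.15 ± 0.16 (95% interval -0.20 to 0.50), not called.

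Il2rb encodes the beta chain, CD122, shared with the interleukin 15 receptor (chromosome 15, 78479256-78495271, minus strand). It had 1397 and 1328 CPM in tumors of MHCII-deleted mice, against 2779, 3332 and 2678 CPM in control tumors. The LN libraries lay between these ranges, at 1812 and 1639.6 CPM in MHCII-deleted mice and 1716, 1861 and 1658 CPM in controls. By all counts Il2rb was lower in MHCII-deleted tumors (-1.10 ± 0.11, adjusted p = 0.000232), and the sign turned to 0.02 ± 0.13, not called, per pan-T cell count. In control mice it rose in tumor by 0.75 ± 0.10 (adjusted p = 0.000249). In MHCII-deleted mice, tumor over LN was -0.34 ± 0.12 by all counts, called at an adjusted p of 0.0383 and lost in 5 other fits, without control LN replicate 1 or 3 and without any 1 of the MHCII-deleted libraries (-0.41 to -0.27), and 0.88 ± 0.14 per pan-T cell count. In LN the difference was -0.02 ± 0.11 (95% interval -0.25 to 0.22). CD8 T and NK cells also carry the beta chain, and the 7 marker genes of these cells summed to 367 to 368 CPM in MHCII-deleted tumors, 603 to 891 CPM in control tumors, 92.4 to 93.0 CPM in LN of MHCII-deleted mice and 85.8 to 113 CPM in LN of controls. Nkg7 made up most of the tumor sums, at a mean of 350 CPM in MHCII-deleted and 672 CPM in control tumors. Cd8a averaged 1.23 and 7.46 CPM there and Ncr1 was at 0 in 6 of 10 libraries. Klrb1c, Cd8b1 and Eomes did not follow the sum in every comparison. Klrb1c averaged 0.492 and 1.06 CPM in those tumors, against 7.53 and 17.6 CPM in LN of MHCII-deleted mice and controls. Cd8b1 averaged 12.3 and 26.0 CPM in tumors, against 25.2 and 26.2 CPM in these LNs. Eomes was higher in MHCII-deleted (2.55 CPM) than in control tumors (0.338 CPM). In tumor the sum thus mainly follows Nkg7. It moves with the Il2rb and Il2ra levels between the tumors of the 2 genotypes, but not from library to library for Il2rb. Control tumor replicate 2 had the lowest sum of its group (603 CPM) and the highest Il2rb level (3332 CPM). The part of the sum in the result was not tested.

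Il2rg encodes the common gamma chain, used by the receptors for interleukins 2, 4, 7, 9, 15 and 21 (chromosome X, 101264378-101268255, minus strand). Its levels were 996 and 1172 CPM in tumors of MHCII-deleted mice and 2502, 2294 and 2326 CPM in control tumors. In LN they were 2045 and 2017 CPM in MHCII-deleted mice, against 2183, 2244 and 2134 CPM in controls. All libraries except the 2 tumor libraries of MHCII-deleted mice thus lay between 2017 and 2502 CPM. Il2rg fell in MHCII-deleted tumors by all counts (-1.13 ± 0.09, adjusted p = 0.000144) but not per pan-T cell count (-0.02 ± 0.08). Control tumor over LN was 0.12 ± 0.08 by all counts, not called (95% interval -0.06 to 0.29), and 0.20 ± 0.07 per pan-T cell count, called. In MHCII-deleted mice tumor over LN was -0.91 ± 0.10 by all counts (adjusted p = 5.74e-05) and 0.30 ± 0.08 per pan-T cell count. The gene overlaps Gm20489 on the same strand over 728 exon bases, and 27.515% of its 50-base words occur there, so reads could be split between them.

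Ratios of counts within a library do not depend on either scale, and that of Il2rb to Il2rg was higher in tumor than in LN in both genotypes. It was 1.27 ± 0.19 (SD, n = 2) in tumor and 0.849 ± 0.051 (n = 2) in LN of MHCII-deleted mice. In controls it was 1.24 ± 0.19 (n = 3) in tumor and 0.797 ± 0.028 (n = 3) in LN. The lowest tumor library (1.11) stood above the highest LN library (0.886). Il2ra to Il2rg was 0.171 ± 0.003 in tumor and 0.148 ± 0.031 in LN of MHCII-deleted mice, and 0.178 ± 0.007 in tumor and 0.123 ± 0.015 in LN of controls. Il2ra to Il2rb had means from 0.137 to 0.173, and the groups overlapped except tumor (at most 0.1495) and LN (at least 0.155) of MHCII-deleted mice. These ratios are descriptions without a test.

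**Figure D4:**
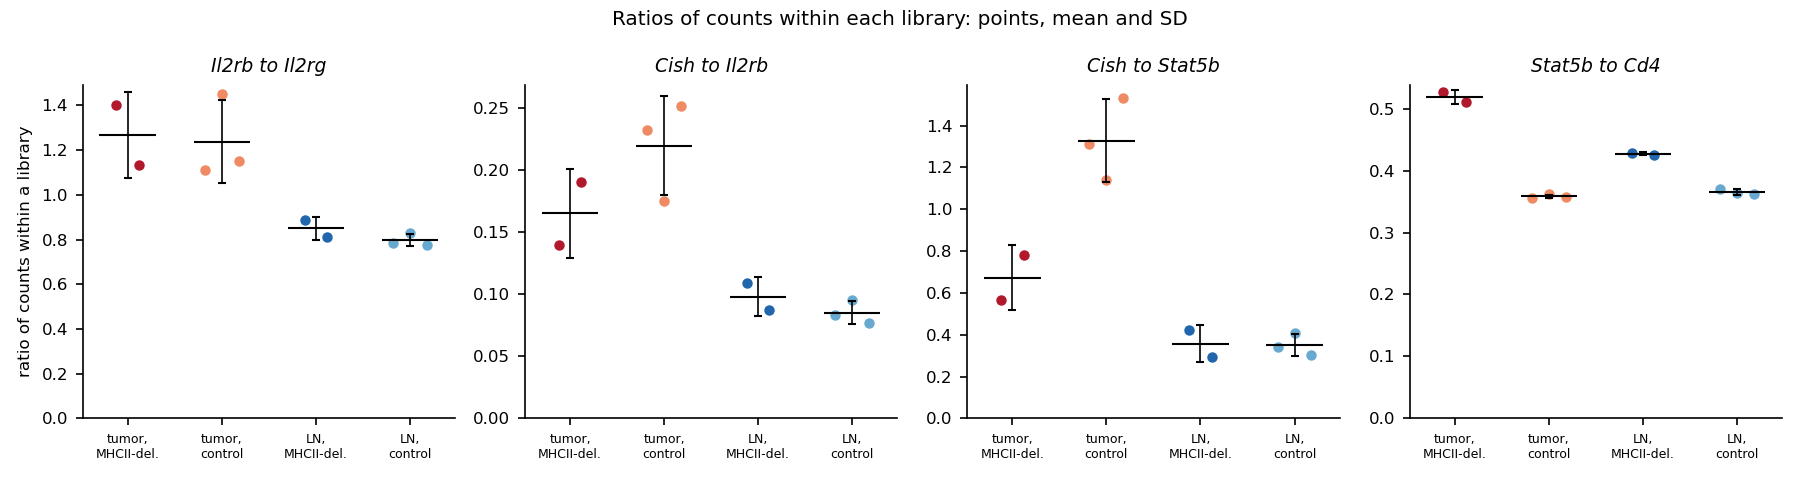
Ratio of the counts of 2 genes within each library (y axis from 0) by group, with mean and SD; n = 2 libraries for each MHCII-deleted group and 3 for each control group. Every tumor library lies above every LN library for Il2rb to Il2rg, Cish to Il2rb and Cish to Stat5b, and for Stat5b to Cd4 the tumor libraries of MHCII-deleted mice (0.511 to 0.527) lie above all others.

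Stat5a and Stat5b encode the STAT5 proteins and neighbour each other on chromosome 11 (100859351-100885169, plus strand, and 100780731-100850724, minus strand). Stat5a had 94.96 and 112 CPM in tumors of MHCII-deleted mice, against 146, 165 and 136 CPM in control tumors. Its LN levels were 146 and 162 CPM in MHCII-deleted mice, against 140.2, 156 and 154 CPM in controls, so the control tumor and both LN groups overlapped. Stat5b had 346 and 323 CPM in tumors of MHCII-deleted mice, against 493, 512 and 439.9 CPM in control tumors. In LN, Stat5b had 470.1 and 483 CPM in MHCII-deleted mice, against 418, 435 and 422 CPM in controls. These LN groups did not overlap, but the difference of 0.17 ± 0.09 was not called (adjusted p = 0.719).

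For both Stat5 genes the direction in tumor turned with the scale. By all counts, MHCII-deleted over control tumors gave -0.53 ± 0.12 for Stat5a (adjusted p = 0.0111) and -0.53 ± 0.09 for Stat5b (adjusted p = 0.00279). On the pan-T cell scale the differences were 0.59 ± 0.12 and 0.60 ± 0.12, both called higher, below the median of all genes (1.23). Without tumor replicate 1 of the MHCII-deleted mice, the Stat5a difference by all counts was -0.41 and was not called. With a GC index of the libraries (defined after the members) as a covariate, neither was called, at -0.60 for Stat5a (adjusted p = 0.0665) and -0.43 for Stat5b (adjusted p = 0.0604). Tumor over LN in control mice was -0.01 ± 0.11 for Stat5a (95% interval -0.25 to 0.23) and 0.18 ± 0.08 for Stat5b (0.00 to 0.36), neither called, and the sign for Stat5a was positive (0.07) per pan-T cell count. Without control tumor replicate 3 the Stat5b value was 0.24 and was called, as it was by DESeq2 (0.22). In MHCII-deleted mice the same contrast gave -0.58 ± 0.13 and -0.51 ± 0.10 by all counts (adjusted p = 0.00578 and 0.0023), against 0.62 ± 0.14 and 0.71 ± 0.14 per pan-T cell count, called in each case. Between tumors the sizes by all counts were smaller for the Stat5 genes than for the receptor chains, a difference that was not tested. Stat5b to Cd4, a ratio to a T helper cell gene, was 0.519 ± 0.012 in MHCII-deleted and 0.358 ± 0.003 in control tumors. In LN it was 0.427 ± 0.003 in MHCII-deleted mice and 0.366 ± 0.005 in controls. The melanoma sum and the pan-T cell share given above move with this ratio between tumors, and their part in it was not tested. Stat5a to Stat5b had means of 0.309 to 0.353 in the 4 groups. Of their 50-base words, 8.519% (Stat5a) and 10.985% (Stat5b) occur in another gene, mostly in each other, so the split between them is less certain.

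Cish encodes CIS, which binds the receptor and blocks STAT5 docking (chromosome 9, 107296026-107302784, plus strand). It had 195 and 253 CPM in tumors of MHCII-deleted mice, against 646, 583 and 675 CPM in control tumors. In LN it had 198 and 142 CPM in MHCII-deleted mice, against 142, 177 and 127 CPM in controls. The control tumor libraries had more than 2 times the level of any other library, and the LN groups overlapped. In control mice tumor exceeded LN by 2.09 ± 0.17 (adjusted p = 1.16e-05), with group means of 634 ± 47 (SD, n = 3) and 149 ± 25 CPM (n = 3). In MHCII-deleted mice tumor over LN was 0.40 ± 0.20 by all counts, not called (95% interval -0.05 to 0.84), and 1.60 ± 0.18 per pan-T cell count, called. Between tumors, Cish was lower in MHCII-deleted mice by all counts (-1.50 ± 0.19, adjusted p = 0.000591). Per 10000 pan-T cell counts these tumors had 345 and 370.2, against 465, 435 and 509 in controls, which did not overlap, but the difference of -0.39 ± 0.16 was not called. The LN difference was 0.19 ± 0.18, not called, and the difference between the tumor and LN effects was -1.69 ± 0.26 by all counts (adjusted p = 0.0058) and -0.58 ± 0.23 per pan-T cell count, not called.

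Against its own pathway, Cish was also higher in tumor. Cish to Stat5b was 0.674 ± 0.154 in tumor and 0.358 ± 0.089 in LN of MHCII-deleted mice, and 1.33 ± 0.20 in tumor and 0.350 ± 0.053 in LN of controls. Cish to Il2rb was 0.165 ± 0.036 in tumor and 0.098 ± 0.016 in LN of MHCII-deleted mice, and 0.220 ± 0.040 in tumor and 0.085 ± 0.009 in LN of controls. The tumor groups did not overlap for Cish to Stat5b and overlapped for Cish to Il2rb, again without a test. Cish overlaps Gm17040 and Gm17041 on the opposite strand over 740 exon bases, and the strand setting of the counting is not given in the sources used here.

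Socs2, which damps growth hormone and cytokine receptors (chromosome 10, 95385362-95417180, minus strand), was the member with the lowest level per length in every group. It had 11.2 and 19.8 CPM in tumors of MHCII-deleted mice, against 39.0, 38.7 and 35.9 CPM in control tumors. In LN it had 18.2 and 16.7 CPM in MHCII-deleted mice, against 15.2, 16.9 and 14.5 CPM in controls. As for Cish, the control tumor libraries stood above all others. Tumor over LN was 1.28 ± 0.21 in control mice (adjusted p = 0.00103). In MHCII-deleted mice it was -0.17 ± 0.25 by all counts, not called, and 1.01 ± 0.23 per pan-T cell count, called. Without tumor replicate 2 of those mice the first value was -0.64 and was called. Between tumors the difference was -1.29 ± 0.24 by all counts (adjusted p = 0.00385) and -0.20 ± 0.21 per pan-T cell count, not called.

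Socs1, the strongest direct inhibitor of JAK kinases in the family (chromosome 16, 10782240-10785536, minus strand), varied more between libraries. It had 47.9 and 69.6 CPM in tumors of MHCII-deleted mice, against 177, 91.8 and 137 CPM in control tumors. In LN it had 145 and 123 CPM in MHCII-deleted mice, against 55.4, 99.9 and 45.1 CPM in controls. Neither pair of groups overlapped, and the order of the genotypes was opposite in tumor and LN. By all counts the difference was -1.20 ± 0.37 in tumor (adjusted p = 0.0376), and it was -0.10 ± 0.32, not called, per pan-T cell count. In LN it was 1.01 ± 0.35 by all counts (adjusted p = 0.284) and 1.01 ± 0.31 per pan-T cell count, not called on either scale, though limma-voom called it (1.10). The tumor call was lost without control tumor replicate 1 or 3, MHCII-deleted tumor replicate 1, control LN replicate 1 or either LN library of the MHCII-deleted mice, with values of -1.20 to -0.96. It was also lost without the filter on low counts (adjusted p = 0.0678) and by limma-voom (adjusted p = 0.123). Tumor over LN was 1.01 ± 0.32 in control mice (adjusted p = 0.032). That call was lost without control LN replicate 1 or 3, control tumor replicate 1 or 3 or MHCII-deleted LN replicate 2 (0.77 to 1.01) and without the filter (adjusted p = 0.060). In MHCII-deleted mice tumor over LN was -1.19 ± 0.39 by all counts (adjusted p = 0.034), lost without either LN library or tumor replicate 1 of these mice (-1.30 to -0.95), without the filter (adjusted p = 0.0627) and by limma-voom (adjusted p = 0.0585). It was -0.00084 ± 0.35 per pan-T cell count.

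Socs3, which inhibits receptors of the interleukin 6 family (chromosome 11, 117966079-117970047, minus strand), was not called in any comparison by all counts in the fit to all 4 groups. It had 185 and 198 CPM in tumors of MHCII-deleted mice, against 273, 374 and 358 CPM in control tumors. In LN it had 160.5 and 123 CPM in MHCII-deleted mice, against 88.2, 415 and 229 CPM in controls. The control LN libraries thus spread over more than 4 times, and this spread enters each test. The tumor groups did not overlap, with a difference of -0.80 ± 0.49 by all counts (adjusted p = 0.241) and 0.31 ± 0.45 per pan-T cell count. By all counts it was called without control LN replicate 1 (-0.81) and with only the tumor groups in the fit (-0.88 ± 0.17, adjusted p = 0.0187). Tumor over LN was 0.44 ± 0.52 in MHCII-deleted mice and 0.46 ± 0.43 in controls by all counts. Scaled to pan-T cell genes it was 1.65 ± 0.51 in MHCII-deleted mice, called higher, and 0.56 ± 0.41 in controls, not called.

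Pim1, a serine/threonine kinase that favours survival and is induced by STAT5 (chromosome 17, 29490753-29496112, plus strand), had the largest tumor difference of the members in control mice. It had 29.2 and 59.0 CPM in tumors of MHCII-deleted mice, against 103, 50.2 and 80.3 CPM in control tumors, and these groups overlapped. In LN it had 26.3 and 39.8 CPM in MHCII-deleted mice, against 13.1, 13.2 and 10.2 CPM in controls, with no overlap. Tumor over LN was 2.68 ± 0.33 in control mice (adjusted p = 0.000217). In MHCII-deleted mice it was 0.41 ± 0.38 by all counts, not called, and 1.58 ± 0.36 per pan-T cell count, called. Between tumors it was -0.82 ± 0.36 by all counts, not called (adjusted p = 0.113), and 0.26 ± 0.32 per pan-T cell count. Without tumor replicate 1 of the MHCII-deleted mice the first value was -0.40, not called, and without tumor replicate 2 it was -1.42 and was called. In LN it was 1.44 ± 0.35 by all counts (adjusted p = 0.078) and 1.44 ± 0.32 per pan-T cell count, called on the second scale. By all counts it was also called without either tumor library of the MHCII-deleted mice (1.44 in both), with only the LN groups in the fit (1.45), by DESeq2 (1.403) and by limma-voom (1.38). Pim1 overlaps Gm26885 on the opposite strand over 488 exon bases.

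The level of genes with GC-rich stretches, relative to other genes, moved with the genotype in both tissues. A GC index, the mean log2 CPM of the 6296 tested genes with a window of 100 bases above 75% GC minus that of 7544 others, members left out, was 0.640 to 0.890 in tumors of MHCII-deleted mice and 0.510 to 0.589 in control tumors. It was 0.657 to 0.717 in LN of MHCII-deleted mice and 0.330 to 0.397 in LN of controls, with no overlap in either tissue. The richest window held 81% GC in Pim1 and 83% in Socs1, against 61% in Il2ra and 65% in Il2rb and Il2rg. With the index as a covariate, a fit chosen after seeing the data, the LN difference was 0.12 for Pim1 and -0.22 for Socs1, and tumor over LN in control mice was 0.41 for Il2ra and 0.26 for Socs1, none of them called. Between tumors Pim1 was called lower in that fit (-1.74, adjusted p = 0.0233). Il2rb, Cish, Socs2 and Pim1 were called higher in control tumor than in control LN in that fit too. The index is nearly tied to the groups, so its part and that of the genotype cannot be told apart.

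**Figure D5:**
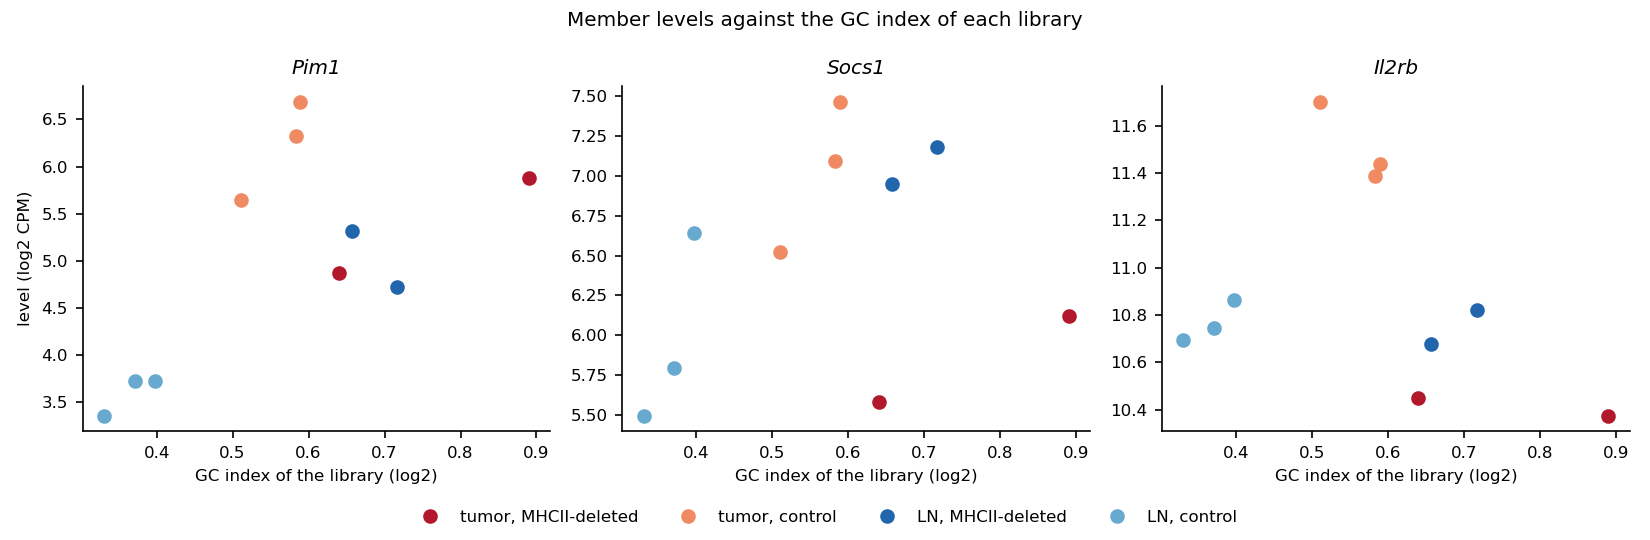
Level (log2 CPM, y axis) against the GC index of each library (log2, x axis) for Pim1, Socs1 and Il2rb; each point is 1 of 10 libraries, coloured by group. The LN libraries of MHCII-deleted mice (0.657 to 0.717) lie right of the LN libraries of controls (0.330 to 0.397) and above them for Pim1 and Socs1, while for Il2rb the LN groups overlap in level.

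Per kilobase of exon, the gamma and beta chains stood highest and Socs2 lowest in all 4 groups. In tumors of MHCII-deleted mice Il2rg had 454 ± 52 and Il2rb 318 ± 11 CPM per kb (SD, n = 2). Socs3 (66.3 ± 3.3) and Stat5b (60.4 ± 3.0) followed within their spread of each other, then Cish (34.9 ± 6.3) and Il2ra (32.5 ± 3.2), which also overlapped. Socs1 (20.2 ± 5.3), Stat5a (14.5 ± 1.7) and Pim1 (13.1 ± 6.3) came next, each within the spread of its neighbour, with Socs2 at 1.63 ± 0.64. In control tumors the order was Il2rg (995 ± 47), Il2rb (683 ± 82), Socs3 (116 ± 19), Cish (98.8 ± 7.3), Stat5b (86.9 ± 6.8), Il2ra (74.0 ± 5.2), Socs1 (46.4 ± 14.6), Pim1 (23.2 ± 7.9), Stat5a (20.9 ± 2.0) and Socs2 (3.97 ± 0.18), all in CPM per kb with n = 3. Socs3 and Cish, Cish and Stat5b, and Pim1 and Stat5a lay within their SDs of each other. In LN of MHCII-deleted mice Il2rg had 851 ± 9, Il2rb 403 ± 28, Stat5b 86.1 ± 1.7, Il2ra 52.6 ± 11.6, Socs3 49.0 ± 9.2, Socs1 46.1 ± 5.2, Cish 26.5 ± 6.1, Stat5a 21.6 ± 1.6, Pim1 9.84 ± 2.84 and Socs2 1.83 ± 0.11 CPM per kb. In LN of controls Il2rg had 916 ± 23, Il2rb 407 ± 24, Socs3 84.4 ± 56.7, Stat5b 76.7 ± 1.6, Il2ra 47.3 ± 6.7, Cish 23.2 ± 4.0, Socs1 23.0 ± 10.0, Stat5a 21.0 ± 1.2, Pim1 3.62 ± 0.51 and Socs2 1.63 ± 0.13 CPM per kb. In both LN groups Il2ra and Socs3, and Cish and Stat5a, lay within their SDs of each other. Cish thus stood beside Stat5b in control tumors but below it in the other 3 groups.

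The cytokines of this receptor family were scarce in the sorted cells. Il2 had 5 to 31 counts in every library, and Il15 and Il7 had at most 43 counts. Il21, the follicular helper cytokine, had 0 and 0 counts in tumors of MHCII-deleted mice and 2, 0 and 4 in control tumors, against 201 and 302 counts in LN of MHCII-deleted mice and 217, 284 and 302 in LN of controls. A count of 0 allows up to 3 counts, or 0.0875 to 0.104 CPM in those tumors, for counting error only. Il4 had 15 and 7 counts in tumors of MHCII-deleted mice and 0, 1 and 2 in control tumors, against 62 and 56 in LN of MHCII-deleted mice and 118, 101 and 55 in LN of controls. Il21 was called lower in tumor than in LN in both genotypes and Il4 in controls, and between tumors Il4 was called higher in MHCII-deleted mice at these low counts. Il9 was filtered out.

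Of the 6 other receptor chains of the family, 4 rose and 0 fell in control tumor over LN, with a median log2 difference of 0.55 (all genes 0.08), against 22.8% of all genes higher and 16.1% lower. They were Il7r, the interleukin 7 receptor (1.22 ± 0.15 SE), Crlf2, the thymic stromal lymphopoietin receptor (1.00), Il21r (0.44) and Il4ra (0.66). Crlf2 was counted in this list, though its cytokine is not among those named above for the gamma chain. Between tumors all 6 fell in MHCII-deleted mice by all counts, against 13.7% of all genes, with a median of -1.16, Il21r (-1.17), Crlf2 (-1.55), Il4ra (-0.97) and Il15ra (-1.15) having the lowest p. Scaled to pan-T cell genes the median was -0.06, 0 fell and 1, Il7r, rose, against 0.330% and 67.1% of all genes. Crlf2 had 46.5 ± 11.2 CPM in tumors of MHCII-deleted mice and 136 ± 16 CPM in control tumors. In MHCII-deleted mice, tumor over LN gave 1 higher (Il7r, 0.58) and 3 lower (Il21r, Il15ra and Il9r) by all counts, against 24.3% and 20.1% of all genes, and 4 higher and 0 lower per pan-T cell count, against 64.4% and 2.25%.

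Among the 4 Janus kinases, Jak3, which binds the gamma chain, rose in control tumor over LN (0.53) and so did Tyk2 (0.35), while Jak1, which binds the beta chain, fell (-0.36). Of all genes, 22.8% rose and 16.1% fell there. The fall of Jak1 was not called per pan-T cell count (-0.28). Jak1 had 766 ± 0.14 CPM in tumors and 1625 ± 137 CPM in LN of MHCII-deleted mice, and 1163 ± 180 CPM in tumors and 1498 ± 85 CPM in LN of controls. Between tumors Jak3 (-0.88), Tyk2 (-0.82) and Jak1 (-0.60) fell in MHCII-deleted mice by all counts, against 13.7% of all genes. Per pan-T cell count 2 of the 4 rose and 0 fell, against 67.1% and 0.330% of all genes. Among other STAT genes, Stat3 rose (0.86) and Stat2 fell (-0.75) in control tumor over LN, and Stat2 was not called per pan-T cell count. Between tumors Stat4 (-0.68), Stat3 (-0.55) and Stat6 (-0.35) fell in MHCII-deleted mice by all counts, where 13.7% of all genes fell. Per pan-T cell count the same genes rose (0.45, 0.59 and 0.78 for Stat4, Stat3 and Stat6). On that scale 67.1% of all genes rose and the median of all genes was 1.23, above these 3 values.

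Among 13 other SOCS genes and brakes of cytokine signaling, Ptpn6, the phosphatase SHP-1, fell in tumor over LN in both genotypes and on both scales. It had 126 ± 16 CPM in tumors and 485 ± 43 CPM in LN of MHCII-deleted mice (-1.94 by all counts, -0.74 per pan-T cell count). In controls it had 203 ± 35 CPM in tumors and 475 ± 19 CPM in LN (-1.22 and -1.15). Control tumor over LN also gave falls of Pias1 (-0.51) and Ptpn1 (-0.48) and a rise of Socs5 (1.00), which makes 1 higher and 3 lower of 13, against 22.8% and 16.1% of all genes. Between tumors 4 fell (Ptpn1, Ptpn6, Pias1 and Pias3) and 1 rose (Sh2b3) by all counts, against 13.7% and 15.0% of all genes. Per pan-T cell count 11 rose and 0 fell, against 67.1% and 0.330%. Sh2b3 had libraries far apart there, at 41.3 ± 27.4 CPM in MHCII-deleted and 14.4 ± 6.4 CPM in control tumors. In LN, Sh2b3, an adaptor that restrains JAK signaling, was higher in MHCII-deleted mice (2.46, adjusted p = 0.0451), with 104 ± 9 CPM against 19.0 ± 2.2 CPM in controls. Of 9 genes of the adaptor, PI3K and mTOR branch, Grb2 was higher there as well (2.18, adjusted p = 0.046), with 207 ± 6 CPM against 45.6 ± 6.6 CPM. The GC index given above moves with both, and with it as a covariate 0 genes of the table were called in LN by edgeR (828 at an unadjusted p under 0.05). The count of genes called in LN was also 0 with any 1 of the 5 LN libraries left out (960 to 1268 at an unadjusted p under 0.05) and with the replicate block (1140), against 674 by DESeq2 and 787 by limma-voom with all libraries. Control tumor over LN gave rises of Gab2 (2.15) and Grb2 (1.29) and a fall of Pik3cd (-0.64), the other 6 not being called. The shares of all genes were 22.8% higher and 16.1% lower. Between tumors Gab2 (2.39), Akt1 (2.71) and Rps6kb1 (0.67) were the 3 that rose by all counts, against 15.0% of all genes. Pik3r1 (-0.74) and Pik3cd (-0.79) were the 2 that fell, against 13.7%. Per pan-T cell count 7 of 9 rose, against 67.1% of all genes. Akt1 had 82.4 and 570.0 CPM in MHCII-deleted tumors, against 45.7, 41.6 and 62.1 CPM in control tumors, so 1 library carries most of its difference. Gab2 had 22.8 to 25.8 CPM in MHCII-deleted tumors, 2.11 to 6.21 CPM in control tumors and only 0.739 to 1.19 CPM in LN. The melanoma sum given above is likewise highest in MHCII-deleted tumors and lowest in LN, and its part in the Gab2 differences was not tested.

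The 18 other genes known to be induced or repressed by interleukin 2 in T cells moved both ways in control tumor over LN, with 7 higher, 5 lower and a median of 0.20, against 22.8% of all genes higher and 16.1% lower. Il10, the suppressive cytokine (3.13), Gadd45b (2.90) and Bcl2l1, which encodes BCL-XL (1.36), were among those higher, and Bcl2 (-2.31) among those lower. The 4 were called in the same directions in MHCII-deleted mice on both scales, Il10 at 3.09, Gadd45b at 1.62, Bcl2l1 at 0.77 and Bcl2 at -1.90 by all counts. Counts were 7 higher and 7 lower there by all counts, against 24.3% and 20.1% of all genes, and 12 higher and 3 lower per pan-T cell count, against 64.4% and 2.25%. Between tumors, Il10 had 26.0 ± 3.6 CPM in MHCII-deleted mice and 78.2 ± 2.7 CPM in controls, a fall by all counts (-1.59) and per pan-T cell count (-0.48). Gadd45b fell on both scales too, with 142 ± 35 CPM in MHCII-deleted mice and 419 ± 19 CPM in controls (-1.56 and -0.46). These were the 2 of 18 that fell on the pan-T cell scale, where 9 rose, against 0.330% of all genes lower and 67.1% higher. By all counts 6 fell and 1, Bcl2, rose, against 13.7% and 15.0%. In LN, Il10 was lower in MHCII-deleted mice (-1.55, adjusted p = 0.0255), at 3.06 ± 0.09 CPM against 8.94 ± 0.65 CPM in controls, and Pim3 was higher (1.23, adjusted p = 0.046). Neither call remained with any 1 LN library left out, the replicate block or the GC covariate, where 0 genes of the table were called by edgeR, with the unadjusted counts given above.

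By level over all 10 libraries, the tested genes most like Il2ra among 8722 with at least 10 CPM on average, predicted genes and receptor segments left out, were Cytip (Pearson r = 0.978), Gimap7 (0.967) and Sla2 (0.965). Those most like Stat5a were Lrrc8c (0.985), Slu7 (0.972) and Cd1d1 (0.969), and those most like Cish were D16Ertd472e (0.988), Rgs1 (0.983) and Irf8 (0.983). These correlations of log2 CPM describe 10 libraries that fall into 4 groups and share the pan-T cell share given above.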

How the data were processed

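For each of 10 libraries the authors deposited unnormalised counts, 1 row per Ensembl gene. Per the submitters' processing notes, CASAVA 1.8.2, STAR 2.4, featureCounts 1.4.6 and GRCm38 were used. The annotation release and the strand setting are not given in the sources used here. Per the labels, 1 ng of total RNA went into SMARTer Ultra Low amplification, Nextera XT library preparation and single-read sequencing of 50 bases.

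All 21556 identifiers were matched to GENCODE M21. Genes were filtered with filterByExpr (minimum count 10), normalised by TMM and tested with edgeR 4.0.16 (R 4.3.3): a quasi-likelihood fit with robust spread to all 10 libraries as 4 group means, with Benjamini-Hochberg adjustment over 13920 genes and a threshold of 0.05. Each SE is the absolute log2 fold change over the root of its F statistic. A second scale set library sizes to the counts of 20 pan-T cell genes. The model was tested on simulated counts with changes set between the 2 tumor groups. It recovered 53.6% of 97 genes changed by a log2 of 1 and 72.2% of 97 changed by a log2 of 2, with 3 false calls. A gene that was not called may therefore still differ. Some results for the listed STAT genes are not reported here. Libraries of a group differed by more than sampling noise, and unequally. The chi-square per degree of freedom between 2 libraries was 148 in MHCII-deleted tumors and 58.3 to 80.2 in control tumors. It was 40.2 in LN of MHCII-deleted mice and 28.5 to 30.7 in LN of controls. The 4 groups share the estimate of spread of a gene, so tests that use MHCII-deleted tumors rest in part on groups that varied less.

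The members and lists were chosen with earlier results of these data known. Text names all members, up to 4 called genes per list and comparison by p, and the 3 genes most correlated with Il2ra, Stat5a and Cish. Alternatives were RLE, no filter, non-robust spread, the pan-T cell scale, a replicate block, only the compared groups, DESeq2 1.42.0, limma-voom (limma 3.58.1), each library left out and a GC covariate. Other marker lists summed over all libraries to 29.2 to 62.3 CPM (myeloid) and 4.64 to 31.9 CPM (B and plasma). Stromal genes summed to 275 to 667 CPM in MHCII-deleted and 444 to 4179 CPM in control tumors and at most 4.91 CPM in LN. Endothelial genes summed to 94.5 and 265 CPM in MHCII-deleted tumors, 95.2 to 120 CPM in control tumors and 180 to 216 CPM in LN, there mostly Pecam1. Mean Lyve1 was 43.0 CPM in MHCII-deleted (highest library 83.3) and 2.83 CPM in control tumors. In the same order Flt4 had 35.7 and 2.58, Cdh5 7.28 and 0.478, Prox1 4.51 and 4.23 and Pecam1 66.7 and 91.0 CPM. Their part in the results was not tested.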

Additional observations from a re-analysis of the deposited data

Results flagged for a closer look

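For 8 members, the effect of the deletion in tumor differed from that in LN by the test of the difference itself, by all counts. The log2 difference of the effects was -1.34 for Il2ra, -1.09 for Il2rb, -1.02 for Il2rg, -0.69 for Stat5b, -1.69 for Cish, -2.21 for Socs1, -1.45 for Socs2 and -2.26 for Pim1. Per pan-T cell count none of these 8 passed the test, with -0.22 for Il2ra, 0.047 for Il2rb, 0.099 for Il2rg, 0.45 for Stat5b, -0.58 for Cish, -1.10 for Socs1, -0.36 for Socs2 and -1.17 for Pim1. By all counts, leaving out 1 library ended the call for Pim1 (control LN replicate 3, -2.15; MHCII-deleted LN replicate 2, -1.94; MHCII-deleted tumor replicate 1, -1.84) and for Stat5b (MHCII-deleted LN replicate 2, -0.67). It also ended the calls for Socs1 and Socs2 without control LN replicate 1 (-2.09 and -1.44), control LN replicate 3 (-1.99 and -1.41), MHCII-deleted LN replicate 1 (-2.09 and -1.39) or MHCII-deleted LN replicate 2 (-2.32 and -1.52), and that for Socs1 without MHCII-deleted tumor replicate 1 (-1.96). Stat5a was called without MHCII-deleted tumor replicate 2 (-0.69) and by DESeq2 (-0.50, adjusted p = 0.0437). With the GC covariate the Socs1 call was lost (-1.76, adjusted p = 0.0523). For Socs1 and Pim1 the LN effect is positive (1.01 and 1.44), and the GC index moves with it. The part of the pan-T cell share, the melanoma sum and the GC index in these differences was not tested.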

How the results depend on the processing

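Per pan-T cell count, members called lower became 0 of 10 between tumors, for tumor over LN in MHCII-deleted mice and for tumor minus LN, members called higher became 2, 9 and 1, and 1 between LNs; all genes called became 9391, 9282, 6412 and 397. Reversed there were Il2rb 0.023, Stat5a 0.59, Stat5b 0.60, Socs3 0.31 and Pim1 0.26 between tumors; Il2ra 0.51, Il2rb 0.88, Il2rg 0.30, Stat5a 0.62, Stat5b 0.71 and Socs2 1.01 for tumor over LN in MHCII-deleted mice; Stat5a 0.072 in controls; and Il2rb 0.047, Il2rg 0.099, Stat5a 0.55, Stat5b 0.45 and Socs3 1.09 for tumor minus LN. With the GC covariate, all genes called were 2251 between tumors, 0 between LNs, 3163 for tumor over LN in controls and 975 for tumor minus LN. Reversed there were Il2ra -0.24, Il2rb 0.10, Stat5a -0.066, Cish -0.51, Socs1 -0.22 and Socs2 -0.74 between LNs, Pim1 -0.035 and Il2rg -0.063 for tumor over LN in MHCII-deleted and control mice, and Socs3 0.091 for tumor minus LN. With RLE, DESeq2 and limma-voom, Stat5a in control tumor over LN was 0.028, 0.027 and 0.0089, and with RLE and DESeq2 Socs3 for tumor minus LN was 0.048 and 0.047. In LN, 154 genes were called and this count was 23 with RLE, 806 with only the groups compared, 674 with DESeq2, 787 with limma-voom and 0 to 611 with a library left out, 0 without any 1 of the 5 LN libraries; members higher were 1, 1 and 2 with only the groups compared, DESeq2 and limma-voom, and 0 to 1 with a library left out. With only the groups compared 2519 genes were called between tumors (2092 higher and 1907 lower with all groups). DESeq2 called 2563 genes for tumor minus LN (576 higher and 915 lower by edgeR), 51.0% of them higher (38.6% by edgeR). It called 1 member, Cish, higher for tumor over LN in MHCII-deleted mice, against 4140 of 13978 genes. With a library left out, genes called for tumor minus LN were 527 to 2281 and members lower 4 to 9, the fewest without MHCII-deleted LN replicate 2 (4) and control LN replicate 3 (5); members lower for tumor over LN in MHCII-deleted mice were 3 to 6, 3 without MHCII-deleted LN or tumor replicate 1. Values that turned in some of these were -0.093 to 0.36 (Il2ra), -0.090 to 0.054 (Il2rb), -0.035 to 0.11 (Stat5a) and -0.065 to 0.41 (Cish) between LNs, -0.64 to 0.18 (Socs2) and -0.18 to 0.83 (Pim1) for tumor over LN in MHCII-deleted mice, -0.088 to 0.052 (Stat5a) in controls and -0.65 to 0.38 (Socs3) for tumor minus LN. The cause of these changes was not tested.

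With the replicate block, 0 genes were called between LNs, 3144 between tumors and 1126 for tumor minus LN. Between tumors 7 members were called lower, against 1620 of 13920 genes. For tumor over LN, 5 were lower in MHCII-deleted mice, against 2609 genes, and 5 higher in control mice, against 2880 genes. For tumor minus LN 6 were lower, against 722 genes. The lost calls were those of Socs1 throughout and of Pim1 for tumor minus LN, and the block changed no other call of a member. The deviations of same-numbered tumor and LN libraries correlated at only 0.020 to 0.046, and those of same-numbered libraries of the 2 genotypes at -0.148 to -0.049. Still, 6 of 6 control libraries correlated best with their own number in the other tissue, a hint from the data and not the design. The labels do not say whether same-numbered libraries came from the same mouse, so whether they are paired is not known.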
